A study of Mus musculus with 8 samples.

Results

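The early response genes Egr1, Egr2, Egr3, Egr4, Nr4a1, Nr4a2, Ier2, Ier3 and Ier5, with Srf, the transcription factor that switches many of them on, were followed in mouse embryonic stem cells, untreated or with transcription blocked. The 10 genes were taken by name, with every non-control probe whose RefSeq accession belongs to them. They are 10 of the 20972 gene symbols matched on the array and have 13 of its 55681 probes. There were 7 genes with 1 probe and 3 (Srf, Nr4a2 and Ier5) with 2.

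RNA of 8 cultures was hybridised to 8 single-colour arrays. In the 4OHT group (3 arrays) the cells received 5 µM actinomycin D, which blocks RNA synthesis, and 30 min later 250 nM 4-hydroxytamoxifen (4OHT) for 4 h. The vehicle group (2 arrays) received the same actinomycin D and then ethanol for 4 h, and the untreated group (3 arrays, 0 h) received neither. All 3 groups, untreated included, grew in embryonic stem cell medium with the cytokine LIF and 250 nM PD173074, an inhibitor of FGF receptor kinases. The labels name neither the cell line nor the protein on which 4OHT acts. The titles of the untreated samples carry an abbreviation of actinomycin D while their treatment label says untreated, and comparisons with untreated rest on that label. The series title concerns mRNA degradation under the control of the kinase Erk.

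Early response genes are transcribed within minutes of a signal, without new protein synthesis, and most of their mRNAs are short-lived. In the best known route, ERK phosphorylates ternary complex factors that sit with Srf on CArG boxes of the promoters, while cyclic AMP and calcium signals act through CREB on cyclic AMP response elements (CRE). The Egr proteins are zinc finger transcription factors that bind GC-rich sites, the Nr4a proteins are orphan nuclear receptors, and the Ier genes are named for their immediate early induction.

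Promoter sequences are shown for 4 genes, chosen for the motifs they hold: Srf and Egr2 for the CArG box, Nr4a1 and Nr4a2 for the CRE. Each line holds the 250 bases before the annotated start, 5′ to 3′ on the strand of the gene, from RefSeq on GRCm38.p6, with motif matches in capitals. The windows are chr17:46556163-46556412 (minus strand) for Srf, chr10:67537619-67537868 (plus) for Egr2, chr15:101266596-101266845 (plus) for Nr4a1 and chr2:57124004-57124253 (minus) for Nr4a2.
Srf: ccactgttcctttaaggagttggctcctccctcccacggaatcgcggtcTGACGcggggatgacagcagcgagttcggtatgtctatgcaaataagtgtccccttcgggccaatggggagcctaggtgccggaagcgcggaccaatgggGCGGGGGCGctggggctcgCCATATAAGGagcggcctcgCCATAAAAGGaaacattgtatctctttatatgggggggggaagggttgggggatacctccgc
Egr2: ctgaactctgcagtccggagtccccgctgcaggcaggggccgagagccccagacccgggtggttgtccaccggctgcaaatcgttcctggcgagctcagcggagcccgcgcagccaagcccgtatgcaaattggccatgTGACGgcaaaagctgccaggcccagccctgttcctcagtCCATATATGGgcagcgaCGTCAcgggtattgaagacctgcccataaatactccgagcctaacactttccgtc
Nr4a1: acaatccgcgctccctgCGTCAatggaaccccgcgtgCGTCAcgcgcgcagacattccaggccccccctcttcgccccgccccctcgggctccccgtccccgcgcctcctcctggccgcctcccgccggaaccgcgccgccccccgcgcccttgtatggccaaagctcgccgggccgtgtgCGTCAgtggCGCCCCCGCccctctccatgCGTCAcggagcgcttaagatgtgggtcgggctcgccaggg
Nr4a2: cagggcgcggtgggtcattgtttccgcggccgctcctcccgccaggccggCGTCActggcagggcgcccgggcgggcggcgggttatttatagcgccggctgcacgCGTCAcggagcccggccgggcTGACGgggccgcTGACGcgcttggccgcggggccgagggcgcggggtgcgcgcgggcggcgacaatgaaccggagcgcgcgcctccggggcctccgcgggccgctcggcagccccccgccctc
Both strands were searched for 3 motifs, namely the CArG box, the CRE core TGACG and the Egr site GCGGGGGCG, and no capitals of different motifs overlap in these lines. Of the 32817 windows of this length in the promoter table, 1.47% held a CArG box, 17.7% a CRE core and 2.57% an Egr site.

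Of the 10 genes, 7 were searched, with 11 windows of the promoter table. A CArG box was found in 2 of them, Srf itself (82 and 62 bases before the start) and Egr2 (72 bases before). An Egr site was found in Srf (101 bases before the start) and Nr4a1 (60 bases). A CRE core was found in 5 of the 7, with 4 copies each in the printed windows of Nr4a1 and Nr4a2, 2 in Egr2 and Egr4 and 1 in Srf, and the windows of Ier3 and Ier5 held none of the 3 motifs. Egr3 and Ier2 were not matched, and Egr1 was left out of the search, so nothing is said of motifs in its promoter. These are matches of letters only and were not measured as binding sites.

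**Figure D1:**
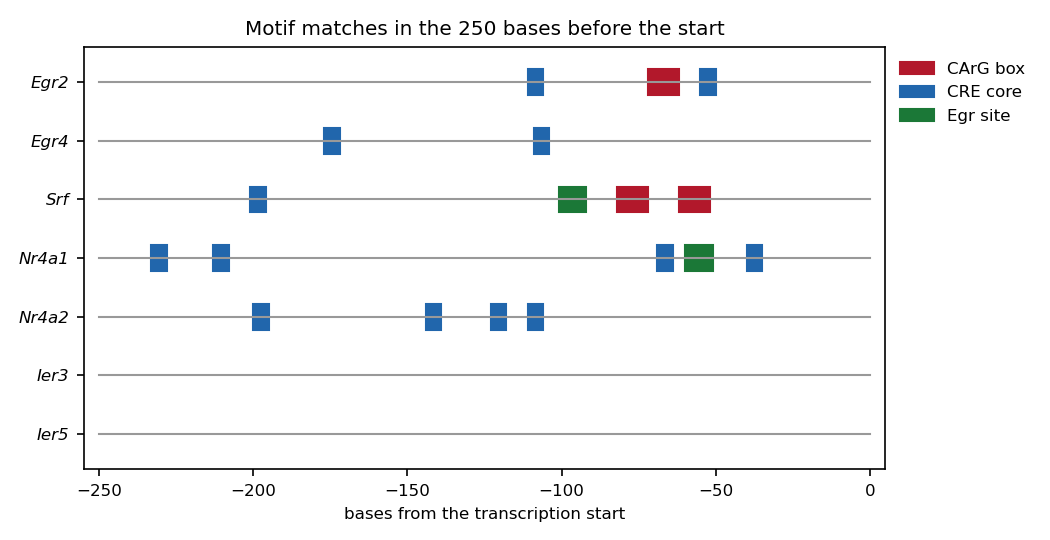
Positions of motif matches in the 250 bases before the annotated start, with 1 row per gene whose promoter was searched. Bases from the start are on the horizontal axis and the motif is shown by colour. Srf carries 2 CArG boxes and 1 Egr site within 101 bases of its start, and the matches in Nr4a1 and Nr4a2 are mostly CRE cores.

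Values below are log2 processed signal minus the log2 75th percentile of the same array, unless the spike-in scale is named, which sets signals against the mean of 8 Agilent E1A spike-in probes instead. Signal was lower after actinomycin D: the 75th percentile was 180 to 209 on 4OHT, 166 to 205 on vehicle and 333 to 457 on untreated arrays. Relative to the spike-in probes its log2 value averaged -5.07 ± 0.25 (SD, n = 3) with 4OHT, -4.77 ± 0.08 (SD, n = 2) with vehicle and -3.49 ± 0.09 (SD, n = 3) untreated, so a gene that looks higher on the first scale may only have lost less than that percentile did. The 4OHT arrays were all on slide 1 and the others on slide 2, so slide and 4OHT cannot be told apart. On slide 2 vehicle lay in row 1 and untreated in row 2, so row and actinomycin D cannot be told apart either. All 10 embryonic stem cell markers were well above background on every array, and their summed signal relative to the 75th percentile was 1156 to 1320 with 4OHT, 1319 to 1371 with vehicle and 917 to 1077 untreated. Of 10 feeder fibroblast markers, 6 to 7 were well above background with 4OHT and 6 to 8 in the other groups, and the sums were 227 to 279, 208 to 254 and 87.5 to 113. Of 8 primitive endoderm markers, 3 were well above background with 4OHT and with vehicle and 7 to 8 untreated, and the sums were 84.1 to 105, 68.9 to 80.7 and 40.0 to 52.5. These sums follow the brightest markers, such as Dppa5a for stem cells, Fn1 and Vim for feeders and Lama1 for endoderm. Of the stem cell markers, Pou5f1, Dppa5a, Tdgf1 and Lin28a had higher log2 means in both treated groups than untreated. Sox2 (-3.54 with vehicle), Fgf4 (-3.63), Zfp42 and Utf1 had lower ones, and Nanog and Esrrb differed in sign between the treated groups. Of the 7 endoderm markers tested, Lama1 and Dab2 had higher log2 means in both treated groups than untreated. Gata4, Gata6, Sox17, Sox7 and Foxa2 had lower ones. The part of other cell types in the results below was not tested.

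Egr1, Srf, Nr4a1, Ier2 and Ier3 were well above background on all 8 arrays. Egr4 was above it on the vehicle and untreated arrays. The tested probes of Egr2, Nr4a2 and Ier5 entered the test through the untreated arrays alone, so a higher level there was built into their choice, and Egr3, above background on 1 of 8 arrays, was not tested. The test therefore covered 9 of the 10 genes. Differences were tested with limma over 28476 features, and an adjusted p under 0.05 is called a change. These p-values rest on how much arrays of a group differ, the design text describes the replicates as biological, and with 8 arrays the precision is limited. In bulk RNA, fewer cells of a kind and less RNA per cell cannot be told apart.

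**Figure D2:**
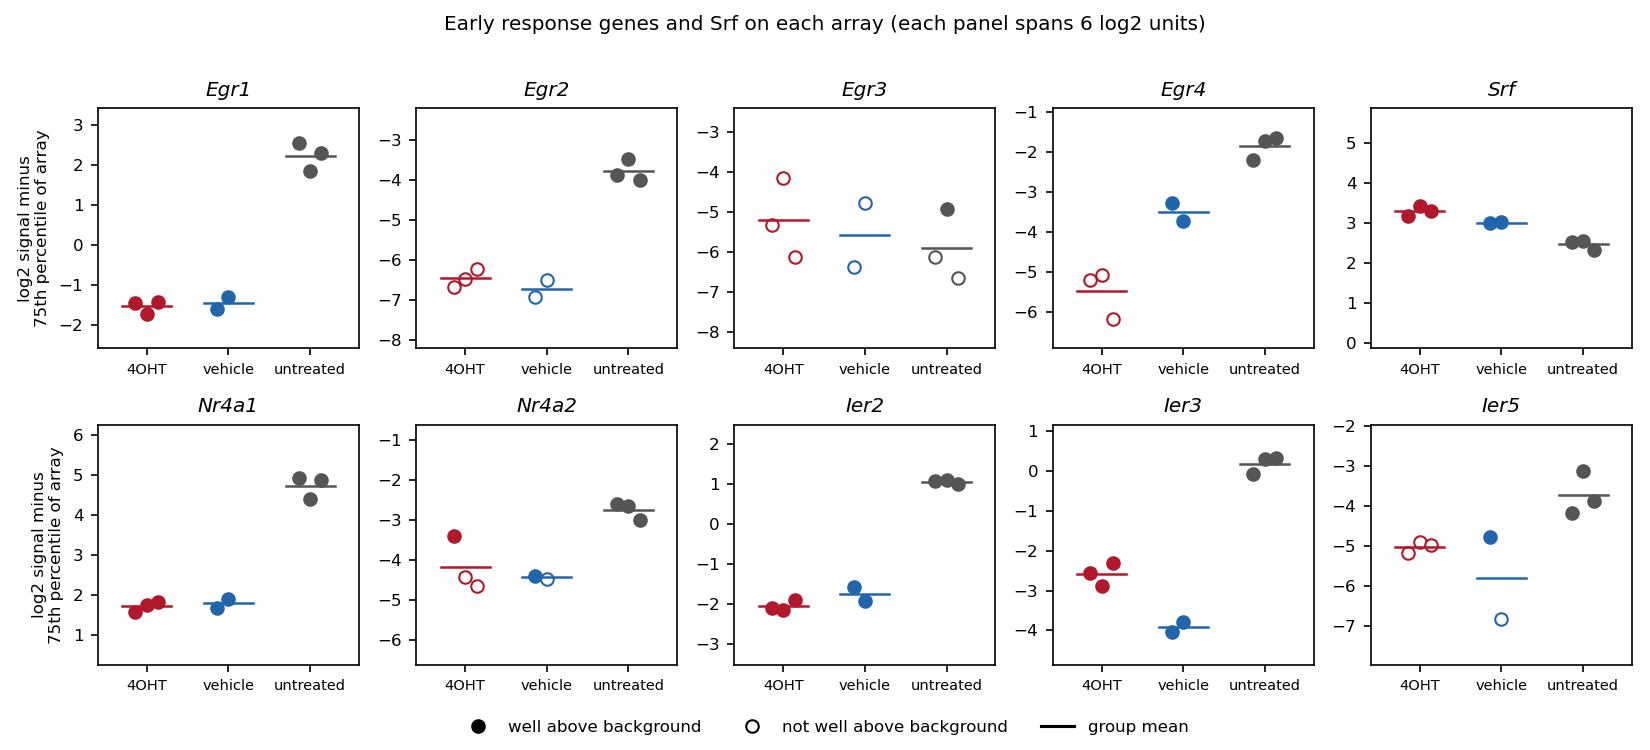
Log2 signal minus the 75th percentile of the array (vertical axes, each spanning 6 log2 units) for the 10 genes on every array, with 4OHT, vehicle and untreated from left to right. Filled points are well above background, open points are not, and lines are group means. Every tested gene but Srf has its highest arrays in the untreated group, and in Ier3 all 4OHT arrays lie above both vehicle arrays.

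The first question is which of these mRNAs were gone after 4 h with vehicle under actinomycin D. Egr1, Nr4a1, Ier2 and Ier3, which were measured on every array, fell 7.08- to 17-fold, while Srf rose 1.45-fold relative to the 75th percentile. Of the 9 genes tested, 8 fell and 1 rose. Among all 28476 features 57.5% changed, 15.9% lower and 41.5% higher, with a median of 0.40 on this scale, and the spike-in scale gave 65% lower and 0.112% higher, with a median of -0.88. The median over the 9 genes was -2.82, and for 3 of them, kept through the untreated arrays alone, the filter favoured this direction.

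Srf is the MADS-box factor that binds the CArG box. Its tested probe stood at 3.18, 3.42 and 3.31 with 4OHT, at 3.01 and 3.02 with vehicle and at 2.54, 2.57 and 2.32 untreated. No 2 groups overlapped, and the order was 4OHT, vehicle, untreated. Vehicle was above untreated by 0.54 ± 0.12 (SE; adjusted p = 0.0074) and 4OHT above untreated by 0.83 ± 0.11 (adjusted p = 0.00056). The other Srf probe was also higher, by 0.90 (adjusted p = 0.00073) for vehicle and by 0.73 (adjusted p = 0.00091) for 4OHT, and relative to the spike-in probes it stood at -0.86 with 4OHT (adjusted p = 0.0027) and -0.37 with vehicle (adjusted p = 0.16). Whether Srf rose depends on the scale. Set against the spike-in probes, the tested probe was lower in both treated groups, at -0.76 ± 0.17 with 4OHT (adjusted p = 0.0023) and -0.74 ± 0.19 with vehicle (adjusted p = 0.0086), which is 59.2% and 59.9% of the untreated signal. Without scaling it stood at -0.23 with 4OHT and -0.56 with vehicle. With quantile normalization (0.31, adjusted p = 0.075) and median scaling (0.58, adjusted p = 0.10) the vehicle difference was not called.

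A comparison within each array is unaffected by scaling each array to a constant, whether the 75th percentile, the median or the spike-in probes, but it can move with quantile normalization and with normexp. Srf minus the mean of Egr1, Nr4a1 and Ier2, a measure chosen after the values were seen, was 3.84, 4.14 and 3.82 with 4OHT, 3.52 and 3.47 with vehicle and -0.30, 0.12 and -0.39 untreated. Srf thus gained on the other 3 by 4.13 with 4OHT and by 3.69 with vehicle, each against untreated (3.38 and 3.07 with normexp, exact two-sided permutation p = 0.1 for both, the smallest these numbers of arrays allow). The values describe unequal change of these mRNAs and not the change of any of them alone. As the measure was chosen after its values were seen, its permutation p is no separate evidence.

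**Figure D3:**
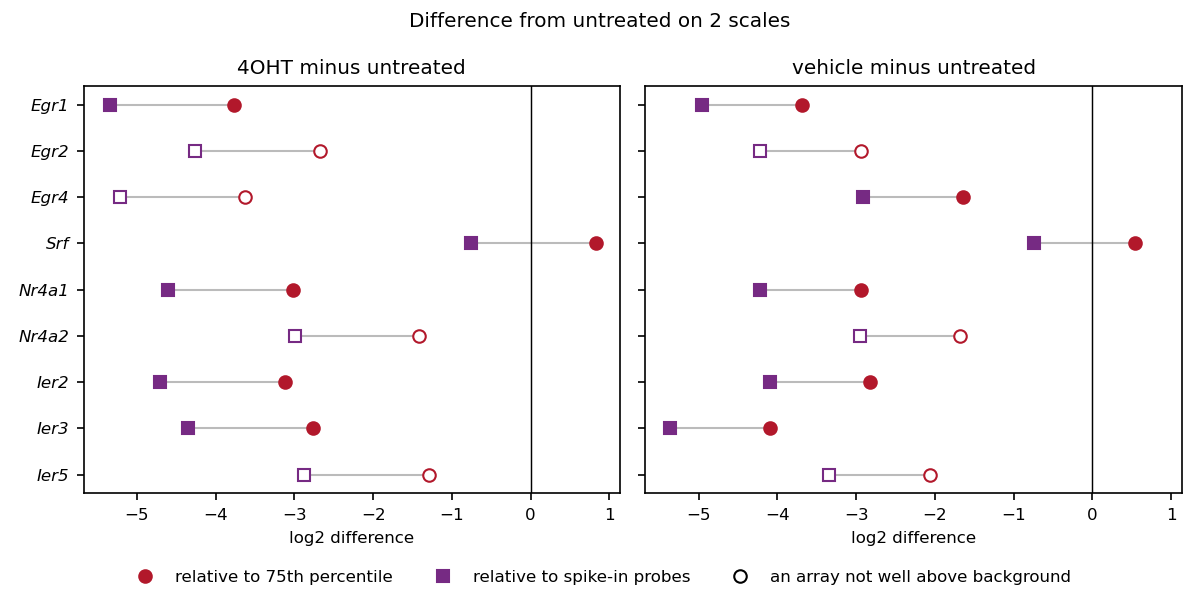
Log2 differences of the tested genes on both scales, relative to the 75th percentile (circles) and to the spike-in probes (squares), for 4OHT against untreated and for vehicle against untreated. Srf is the gene that differs in sign between the scales, with 0.83 and -0.76 for 4OHT and 0.54 and -0.74 for vehicle.

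Egr1, the best studied Egr factor and a standard readout of ERK signalling, stood at -1.45, -1.72 and -1.43 with 4OHT, at -1.60 and -1.30 with vehicle and at 2.54, 1.85 and 2.29 untreated. The treated groups overlapped each other and neither came near the untreated arrays. Vehicle fell by 3.68 ± 0.22 (adjusted p = 5.3e-05) and 4OHT fell by 3.76 ± 0.20 (adjusted p = 1.7e-05), each below untreated. In processed signal Egr1 had 76.7, 54.8 and 67.5 units with 4OHT and 54.7 and 83 with vehicle, against 1942, 1645 and 1982 untreated. Relative to the spike-in probes 2.46% of the untreated signal was left with 4OHT and 3.22% with vehicle.

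Egr4 encodes a further zinc finger factor of the family. It had -5.21, -5.09 and -6.18 with 4OHT, none of them well above background, -3.28 and -3.72 with vehicle and -2.19, -1.74 and -1.66 untreated. The 3 groups did not overlap. Vehicle was below untreated by -1.64 ± 0.35 (adjusted p = 0.0065), and 4OHT was at least 6.04-fold lower than untreated (adjusted p = 0.00013). A bound of this kind sets the brighter group against the lowest signal well above background, or the dim probe's own signal where that is higher. The vehicle call was lost without vehicle replicate 2 (-1.42, adjusted p = 0.053) and with normexp background correction (-0.17, adjusted p = 0.20).

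Egr2, the Krox20 factor known for hindbrain and myelin development, was well above background on the untreated arrays only, at -3.85, -3.47 and -3.98. It stood at -6.66, -6.46 and -6.22 with 4OHT and at -6.93 and -6.49 with vehicle. The fall was at least 1.61-fold with 4OHT (adjusted p = 6.8e-05) and at least 1.95-fold with vehicle (adjusted p = 0.00013), each against untreated, in the direction that the filter favoured. With normexp Egr2 was higher than untreated, by 0.28 with 4OHT and by 0.36 with vehicle. Egr3, another Egr factor, ranged from -6.14 to -4.16 with 4OHT, from -6.39 to -4.78 with vehicle and from -6.67 to -4.93 untreated, and its only array well above background was untreated replicate 2.

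Nr4a1 (Nur77), an orphan nuclear receptor, had 622, 602 and 646 units of processed signal with 4OHT and 529 and 770 with vehicle, against 10114, 9636 and 11784 untreated. On the log2 scale these were 1.57, 1.74 and 1.82 with 4OHT, 1.67 and 1.91 with vehicle and 4.93, 4.40 and 4.86 untreated. The treated groups overlapped and lay well apart from untreated. Vehicle fell by 2.94 ± 0.18 (adjusted p = 6.6e-05) and 4OHT fell by 3.02 ± 0.16 (adjusted p = 2.1e-05). Relative to the spike-in probes 4.13% of the untreated signal was left with 4OHT and 5.38% with vehicle. The promoter printed above for Nr4a1 holds 4 CRE cores and 1 Egr site.

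Nr4a2 (Nurr1), the receptor known for its role in dopamine neurons, was close to the background. Its tested probe had -3.40, -4.43 and -4.66 with 4OHT, -4.39 and -4.47 with vehicle and -2.59, -2.65 and -3.01 untreated. Untreated was highest, and 4OHT replicate 1 and vehicle replicate 1 were the other arrays well above background. The difference from untreated was -1.41 ± 0.32 with 4OHT (adjusted p = 0.0072) and -1.68 ± 0.36 with vehicle (adjusted p = 0.0061). Both lay in the direction that the filter favoured, as this probe was kept through the untreated arrays alone. The other Nr4a2 probe disagreed in size, at -0.08 with 4OHT (adjusted p = 0.78) and -0.60 with vehicle (adjusted p = 0.076). With normexp the tested probe was above untreated by 0.17 with 4OHT and by 0.10 with vehicle, so its direction rests on the background correction.

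Ier2, a small nuclear protein of the early response, stood at -2.11, -2.17 and -1.92 with 4OHT, at -1.60 and -1.95 with vehicle and at 1.06, 1.1 and 0.99 untreated. The treated groups overlapped, and the untreated arrays lay apart from both and close to each other (SD 0.06, n = 3). Vehicle fell by 2.82 ± 0.14 (adjusted p = 2.5e-05) and 4OHT fell by 3.12 ± 0.12 (adjusted p = 5.7e-06). The signal left on the spike-in scale was 3.84% of untreated with 4OHT and 5.83% with vehicle.

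Ier3 (IEX-1), which is known to modulate cell survival and ERK signalling, had 35.5, 24.2 and 36.8 units of processed signal with 4OHT and 10.1 and 14.9 with vehicle, against 315, 559 and 505 untreated. On the log2 scale it stood at -2.56, -2.89 and -2.31 with 4OHT, at -4.04 and -3.78 with vehicle and at -0.08, 0.29 and 0.32 untreated. The 3 groups did not overlap, with 4OHT between vehicle and untreated. Vehicle fell by 4.09 ± 0.21 (adjusted p = 2.9e-05), the largest fall of the 5 genes measured on every array, and 4OHT fell by 2.76 ± 0.19 (adjusted p = 5.3e-05). With normexp the vehicle difference of Ier3 was -1.97, a smaller fall than in Egr1 (-2.94) and Nr4a1 (-2.93). The size and rank of this fall thus rest on the background correction. The spike-in scale gave 4.92% of the untreated signal left with 4OHT and 2.42% with vehicle.

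Ier5, which promotes dephosphorylation of heat shock factor, was dim and kept through the untreated arrays alone, so the filter favoured a fall. Its tested probe had -5.16, -4.88 and -4.97 with 4OHT, none well above background, -4.76 and -6.81 with vehicle and -4.16, -3.12 and -3.86 untreated. The 2 vehicle arrays differed by more than any other pair of arrays in a group for this gene. Vehicle was below untreated by -2.07 ± 0.58 (adjusted p = 0.019), which was not called without vehicle replicate 2 (-1.05, adjusted p = 0.077). 4OHT was not called against untreated (at least 1.67-fold lower, adjusted p = 0.066), although it was when either vehicle array was left out (adjusted p from 0.0087 to 0.0098). With normexp Ier5 was above untreated by 0.35 with 4OHT and by 0.38 with vehicle. The other Ier5 probe was well above background on 1 untreated array and was not tested.

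Against untreated, 4OHT gave 7 lower and 1 higher of the 9 genes, where 59.8% of all features changed, 18.7% lower and 41.1% higher. Their median was -2.76, against 0.31 over all features, and as 3 of the 9 were kept through the untreated arrays alone the filter favoured this direction. All 9 were lower in both treated groups on the spike-in scale, which gave 93.5% of all features lower and 0.102% higher with 4OHT than untreated. This comparison and that of vehicle share the untreated arrays, so their likeness is no separate evidence.

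**Figure D4:**
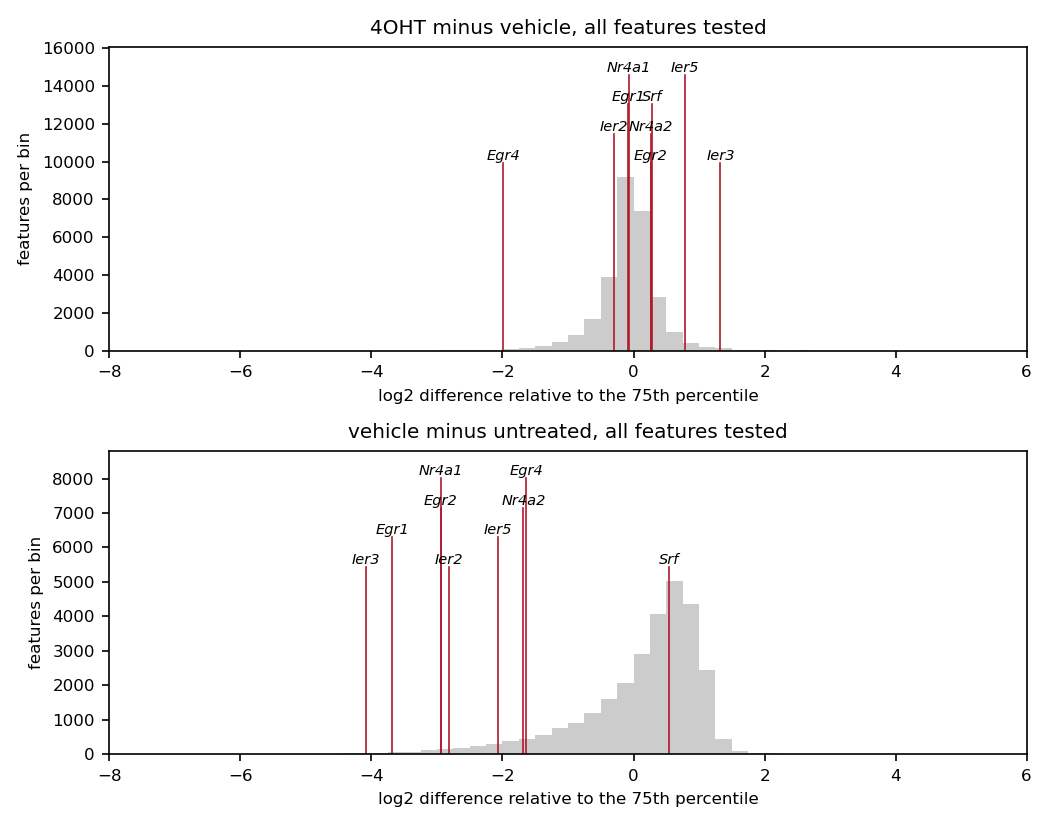
Distribution of log2 differences over all 28476 features (vertical axis, features per bin of the horizontal axis), above for 4OHT minus vehicle and below for vehicle minus untreated, with the tested genes marked by lines. Below, every marked gene but Srf lies in the left tail, between -4.09 and -1.64, and above, Ier3 (1.33) and Egr4 (-1.99) stand at opposite ends.

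The second question, and the one closest to the series title, is whether 4OHT changed any of these mRNAs while transcription was blocked. Ier3 was higher with 4OHT than with vehicle and Egr4 was lower, and the other 7 tested genes did not pass the test. The share of all features called was 3.5%, with 0.92% higher and 2.58% lower, and the median over all features was -0.05. Relative to the spike-in probes 1 of the 9 was lower and 0 higher by limma, (1 at an unadjusted p under 0.05), against 4.11% lower and 0.137% higher of all features. The median of the 9 genes was 0.26, and -0.04 relative to the spike-in probes.

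Ier3 was 2.51-fold higher with 4OHT than with vehicle, a log2 difference of 1.33 ± 0.21 (95% interval 0.83 to 1.82, adjusted p = 0.025), at the 99.5th percentile of all features. The lowest 4OHT array (-2.89) lay above the highest vehicle array (-3.78). The spike-in scale gave 1.02 ± 0.27, which was not called (adjusted p = 0.066). Within each array Ier3 minus the mean of Egr1, Nr4a1 and Ier2, chosen after its values were seen, was -1.90, -2.18 and -1.80 with 4OHT and -3.53 and -3.34 with vehicle, against -2.92, -2.16 and -2.40 untreated. The 4OHT and vehicle arrays differed by 1.48 on this measure (exact two-sided permutation p = 0.1, the smallest that 3 against 2 arrays allow) and by 0.54 with normexp. The direction was the same without any 1 array (1.19 to 1.48), but the call was lost without untreated replicate 3, either vehicle array, 4OHT replicate 1 or 4OHT replicate 3 (adjusted p from 0.061 to 0.12). It was also lost with normexp (0.37, adjusted p = 0.17), no scaling, no filter on dim probes or only these 2 groups in the fit (adjusted p from 0.087 to 0.17).

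Egr4 was at least 1.94-fold lower with 4OHT than with vehicle (fitted difference -1.99 ± 0.35, adjusted p = 0.034), and the spike-in scale gave -2.30 (adjusted p = 0.019). Its processed signal was 5.64, 5.30 and 2.52 units with 4OHT and 17.1 and 15.6 with vehicle, against 72.8, 137 and 128 untreated. Egr4 belongs to the 305 features (1.07% of those tested) that were well above background on slide 2 only, and these made up 69 of the 735 features called lower with 4OHT (9.39%). The call was kept without 4OHT replicate 3 (adjusted p = 0.041) and lost without any of the other 7 arrays (adjusted p from 0.057 to 0.17). It was also lost with normexp (-0.33, adjusted p = 0.19), quantile normalization, no scaling, no filter on dim probes or only these 2 groups in the fit (adjusted p from 0.075 to 0.19).

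The remaining differences between 4OHT and vehicle were small for the bright genes. Egr1 differed by -0.08 (95% interval -0.60 to 0.44, adjusted p = 0.89) and Nr4a1 by -0.08 (-0.51 to 0.36, adjusted p = 0.87). Ier2 differed by -0.30 (-0.62 to 0.03, adjusted p = 0.30). On this scale the intervals of these 3 genes leave out a 2-fold change in either direction. Relative to the spike-in probes Egr1 differed by -0.38 (-1.04 to 0.27) and Ier2 by -0.60 (-1.06 to -0.14), intervals that reach past a 2-fold fall, and Nr4a1 by -0.38 (-0.94 to 0.17). Srf differed by 0.29 on the tested probe (0.01 to 0.57, adjusted p = 0.25) and by -0.18 on the other (adjusted p = 0.48), so on this scale its probes disagreed in sign. Among the dim genes, Nr4a2 differed by 0.27 on its tested probe (-0.58 to 1.11, adjusted p = 0.76) and by 0.52 on the other (adjusted p = 0.32), with 1 of 3 4OHT arrays and 1 of 2 vehicle arrays of the tested probe well above background. For Ier5, well above background on 0 of 3 4OHT arrays and 1 of 2 vehicle arrays, no size is given (adjusted p = 0.53), and Egr2 was below background in both groups (adjusted p = 0.58).

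**Figure D5:**
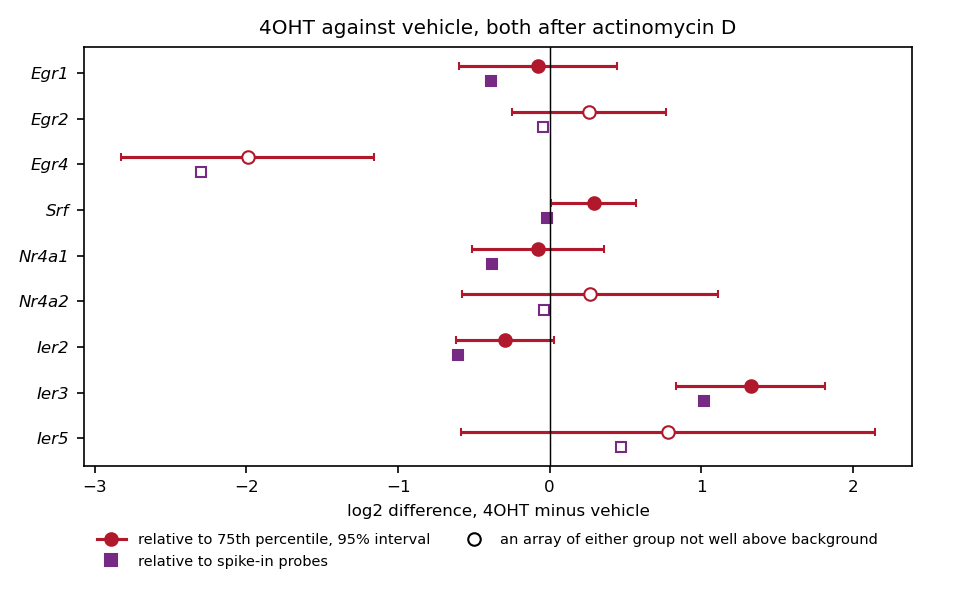
Log2 difference of 4OHT minus vehicle for the 9 tested genes relative to the 75th percentile (circles, with 95% intervals) and on the spike-in scale (squares). Open symbols are genes with an array not well above background. On the first scale the interval of Ier3 lies above 0 (0.83 to 1.82), as does that of Srf (0.01 to 0.57), which was not called, and that of Egr4, whose 4OHT arrays were all not well above background, lies below it.

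A list of 40 other early response genes, of which 38 were tested, gives the setting for these values. With vehicle 31 fell and 0 rose against untreated by limma (32 and 0 at an unadjusted p under 0.05, median -2.61), and with 4OHT 30 fell and 1, the small Maf factor Maff, rose (0.38 ± 0.13, adjusted p = 0.042, and -1.20 relative to the spike-in probes). Of all features, 15.9% were lower and 41.5% higher with vehicle, and 18.7% lower and 41.1% higher with 4OHT. Of the AP-1 genes, Fos fell at least 10-fold (adjusted p = 5.5e-06), Junb at least 5.79-fold (adjusted p = 3.6e-05) and Jun by 2.58 ± 0.35 (adjusted p = 0.00084) with vehicle. Fos, Junb and Atf3, among others of the list, were kept through the untreated arrays alone, so the filter favoured a fall. Requiring all 8 arrays above background left 26 of the list called with vehicle, out of a number still tested that is not given. Over all features that filter left 15340 of 22957 called, 77.7% of them higher. Fosb (-0.45, adjusted p = 0.12), Fosl1 (-0.63, adjusted p = 0.21), Fosl2 (-0.39, adjusted p = 0.25), Jund (-0.12, adjusted p = 0.51) and Atf3 (adjusted p = 0.066), named after their values were seen, did not pass the test. Trib1, a pseudokinase, fell by 4.75 ± 0.17 (adjusted p = 7.8e-06), Myc fell by 4.72 and the ERK phosphatase gene Dusp6 fell by 4.85. Between 4OHT and vehicle 4 of the 38 were higher and 0 lower by limma (6 and 3 at an unadjusted p under 0.05, median 0.06), against 0.92% higher and 2.58% lower of all features. Relative to the spike-in probes 1 of the 38 was called higher, against 0.137% of all features. Plk3, a stress-response kinase, was higher by 2.10 ± 0.17 (adjusted p = 0.0051, and 1.79 relative to the spike-in probes). Fos passed the test too (adjusted p = 0.018) but was below background in both groups, so no fold is given. Chosen after their values were seen, the other two were Zfp36l1, which promotes decay of AU-rich mRNAs (0.99 ± 0.17, adjusted p = 0.031, and 0.68 relative to the spike-in probes), and the kinase Pim1 (0.63 ± 0.09, adjusted p = 0.018, and 0.32 relative to the spike-in probes).

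Of 6 tested genes for cofactors of Srf, 2 fell and 2 rose with vehicle against untreated, while the spike-in scale gave 5 lower and 0 higher (0 at an unadjusted p under 0.05) for either treatment. The spike-in scale put 93.5% of all features lower with 4OHT than untreated and 65% lower with vehicle. The actin-regulated coactivator Mrtfa fell by 2.50 ± 0.09 with vehicle (adjusted p = 7.8e-06), and the related Mrtfb fell by 2.56 ± 0.14 (adjusted p = 3.9e-05). The ternary complex factors Elk4 (0.97 ± 0.17, adjusted p = 0.0023) and Elk1 (0.60 ± 0.17, adjusted p = 0.019) rose, although the spike-in scale put both below untreated (-0.30 and -0.68). With 4OHT 2 rose and 2 fell against untreated, and Mrtfa was lower than with vehicle by -0.52 ± 0.09 (adjusted p = 0.029), which the spike-in scale did not call (-0.83, adjusted p = 0.062). Of 14 tested cytoskeletal targets of Srf, 8 rose and 0 fell with vehicle against untreated by limma, also at an unadjusted p under 0.05, and the counts with 4OHT were the same. Of all features 41.1% were called higher with 4OHT than untreated and 41.5% with vehicle. Actg1, cytoplasmic actin, rose by 1.24 ± 0.15 (adjusted p = 0.00062) and Tagln2, an actin-binding protein, by 1.19 ± 0.10 (adjusted p = 0.00022), and the spike-in scale put both near untreated (-0.04 and -0.09). That scale called 0 of the 14 higher (0 at an unadjusted p under 0.05), with 12 lower with 4OHT and 3 lower with vehicle. The shares of all features lower on it were 93.5% with 4OHT and 65% with vehicle. Between 4OHT and vehicle limma called 0 of the 14 (1 lower and 1 higher at an unadjusted p under 0.05). Of all features 3.5% were called there, 0.92% higher and 2.58% lower.

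Of 5 tested genes for partners of the Egr and Nr4a proteins, the retinoid X receptors Rxra (0.78 ± 0.15, adjusted p = 0.0037) and Rxrg (0.81 ± 0.09, adjusted p = 0.00051), with which Nr4a1 and Nr4a2 can pair, rose with vehicle, although the spike-in scale put both below untreated (-0.50 and -0.47). The Egr corepressor gene Nab2 stood at -0.83 ± 0.33 with vehicle (adjusted p = 0.065) and fell by 0.83 ± 0.29 with 4OHT (adjusted p = 0.044), each against untreated. Rxra and Rxrg were the 2 of 5 called higher with vehicle, near the 41.5% of all features called higher there. With 4OHT 18.7% of all features were called lower than untreated and 41.1% higher. Between 4OHT and vehicle limma called 0 of the 5, against 3.5% of all features, and 0 of the 5 had an unadjusted p under 0.05.

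The genes with the most similar profiles were found among 13170 symbols measured on every array, by the root mean square distance over the 8 arrays between profiles centred on their own means. Egr1 was nearest to Klf2, a pluripotency-associated Krüppel-like factor (0.15), then to Cited2 and Fam110b (0.17 each). Nr4a1 was nearest to Nsmce3 (0.13), Klhl25 and Stk17b (0.15 each), and Ier2 to Arid5a, Zbtb25 and Zswim1 (all 0.11). Ier3 had no neighbour as close: Fgf4, a ligand of FGF receptors, lay at 0.33, Csrnp2 and Rnd3 at 0.34. The 4OHT minus vehicle differences of these 3 genes were 1.36, 0.74 and 1.33. As the distance uses the 4OHT and vehicle arrays, likeness to Ier3 was built into the choice and is no separate evidence. Srf lay at 0.05 from Galnt16 and Rnasek and at 0.06 from Yif1a. Among the genes that were dim on some arrays, the nearest were Tnfaip8l1, Dbr1 and Ccdc71l for Egr4 (0.35 to 0.39), Zfp948, Akap10 and Zfp36l2 for Egr2 (0.18 to 0.19), Dmbx1, Zfp160 and Mapk1ip1 for Nr4a2 (0.21 to 0.25) and G0s2, Zfp94 and Atrn for Ier5 (0.39 to 0.45).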

How the data were processed

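The deposited values are linear spot intensities, background-subtracted in the green channel by Agilent Feature Extraction 11.0.1.1 per the file headers, while the labels give the dye as Cy5. The value table deposited with them holds the same intensity per probe, within a relative difference of 0.00497, and served as an alternative. The file headers name mm9, and RefSeq tables of GRCm38.p6 gave symbols and promoter sequences only. Of 55681 probes, 466 had an array without a value after outlier spots were left out (425 of them through untreated replicate 2), and 0 spots were saturated.

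Spots of a probe were averaged, and log2 values were set against each array's 75th percentile. Probes were kept if all arrays of some group had them well above background (32991), and a gene was represented by its brightest kept probe, which gave 28476 features. The 3 groups were fitted together with lmFit and eBayes of limma 3.58.1 in R 4.3.3 (5 residual degrees of freedom). Two-sided p-values were adjusted by Benjamini-Hochberg over all features and called under 0.05. Spike-in scaling uses 8 of 10 Agilent E1A probes, and their addition to the RNA is not described in the labels. Between groups, single spike-in probes differed by -0.09 to 0.79, so that scale carries an error of its own.

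The genes and lists were chosen with earlier results of these data known. Named are all 10 genes, the 2 largest called rises and falls of each other list per comparison, the 3 nearest profiles per gene, and Fos, Jun, Junb, Myc and Dusp6, and not every gene this rule allows is printed. The alternatives tried were quantile normalization, normexp with an offset of 50, scaling to the median, to spike-ins or not at all, other filters, probe rules and variance models, a replicate block and leaving out each array.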

Additional observations from a re-analysis of the deposited data

How the results depend on the processing

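Counts of the 9 tested genes called lower and higher were 7 and 1 with 4OHT against untreated, 1 and 1 with 4OHT against vehicle, and 8 and 1 for vehicle against untreated. For vehicle against untreated, normexp gave 4 lower and 3 higher, and quantile, median, spike-in and no scaling gave 0 higher. Requiring all 8 arrays above background left 5 genes, with 4 lower than untreated for either treatment and 0 lower for 4OHT against vehicle. That filter removed Egr4, so its call against vehicle could not be kept. Of all 22957 features left, 15728 were called for 4OHT and 15340 for vehicle against untreated, and 1060 between 4OHT and vehicle. For 4OHT against untreated, normexp gave 3 higher, and spike-in and no scaling 0. Normexp reversed Egr2 (0.28 with 4OHT and 0.36 with vehicle, each against untreated), Nr4a2 (0.17 and 0.10) and Ier5 (0.35 and 0.38). Srf reversed with spike-in scaling (-0.76 with 4OHT and -0.74 with vehicle) and with no scaling (-0.23 and -0.56). The causes were not tested. For 4OHT against vehicle, normexp, no scaling, no filter, a fit of only these 2 groups and the replicate block each gave 0 lower and 0 higher, quantile 0 lower and spike-in scaling 0 higher. Of the other early response genes, 4 were called between 4OHT and vehicle, against 2 with quantile, 1 with median, spike-in or no scaling, no filter or only these 2 groups, 7 with trended and robust eBayes and 0 with the replicate block. Over all features 997 were called there, against 242 with median scaling, 92 with no scaling, 101 with no filter, 66 with only these 2 groups and 20 with the replicate block. Spike-in scaling called 26640 for 4OHT against untreated, against 17030. Replicate numbers did not pair the arrays (correlations of same-numbered arrays from -0.19 to 0.36), and under the replicate block Ier3 stood at 1.22 (adjusted p = 0.098) and Egr4 at -1.87 (adjusted p = 0.14) for 4OHT against vehicle, and Ier5 at -2.10 (adjusted p = 0.056) for vehicle against untreated.

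Leaving out each array in turn gave 6 to 8 lower and 1 higher for vehicle against untreated, 7 to 8 lower for 4OHT against untreated, and 0 to 1 lower and 0 to 1 higher between 4OHT and vehicle. The other early response genes called ran from 1 to 4 for 4OHT against vehicle (1 without vehicle replicate 1 or 4OHT replicate 3, 2 without untreated replicate 3 or 4OHT replicate 2), and all features from 221 (without 4OHT replicate 2) to 740 (without untreated replicate 2). Where an arm was left with 1 vehicle array, that array is assumed to vary like the other groups. Of all features called for vehicle against untreated 72.3% were higher, against 84.8% with normexp, 60.5% with quantile, 0.267% with no scaling and 0.172% with spike-in scaling. For 4OHT against untreated this was 68.6%, against 84.4% with normexp, 0.598% with no scaling and 0.109% with spike-in scaling, and for 4OHT against vehicle 26.3%, against 40% with the replicate block and 3.23% with spike-in scaling. Over single genes and settings, 509 results stayed on their side of the threshold, 12 of them uncalled differences between 4OHT and vehicle that changed sign, while 30 lost the call, 6 gained it and 10 reversed in sign. These reversals were all in comparisons with untreated, and not all were called in both settings. Signal near background limits Egr2, Egr3, Egr4, Nr4a2 and Ier5, and the size of the Ier3 fall with vehicle moved with the background correction.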
